A study of Mus musculus with 2 samples.

Results

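The genes described here are 9 genes that make, carry, break down or respond to retinoic acid, the active form of vitamin A: Aldh1a3, Dhrs3, Cyp26a1, Cyp26b1, Rbp4, Crabp1, Crabp2, Rarb and Rarg. Their probes were found by matching the RefSeq accessions of the array's probes to these gene names, and 12 of the 56595 probes belonged to 8 of the 9 genes, among 23784 genes named in all. No accession of Crabp2 was matched, and that gene was not analysed here. The genes were picked with the differences between these same arrays already known, so their differences are given as a description and support nothing beyond it.

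The arrays compare a mouse glioblastoma stem cell line that carries a lentiviral Gli2 shRNA with the same line carrying a lentiviral non-target shRNA, to ask what suppression of Gli2, a transcription factor at the end of the Hedgehog pathway, does to gene expression. The line was set up by the neurosphere method from mouse brain tumours induced de novo with a Sleeping Beauty (SB) transposon, and both groups are stably transduced cells of this line grown in Neurobasal medium with B27, N2, EGF and bFGF. The labels give neither the number of shRNA sequences or clones nor the form of B27, which is sold with and without vitamin A. Each group has 1 array, so no difference below has a replicate check or a p-value, and the ± values are the scanner software's own errors of the spots. In a culture, fewer cells of a type and less RNA per cell cannot be told apart.

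Cells make retinoic acid from retinol: retinol dehydrogenases yield retinaldehyde, which the Aldh1a enzymes oxidise to retinoic acid, and Dhrs3 turns retinaldehyde back to retinol. Retinoic acid binds the receptors RARα, RARβ and RARγ, which sit with RXR partners on paired DNA half-sites, and enzymes of the Cyp26 family then hydroxylate and remove it. In the developing nervous system this signal patterns the hindbrain and spinal cord and promotes neuronal differentiation, and Cyp26a1, Rarb and Dhrs3 are among the genes that retinoic acid itself is known to induce.

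The values are the processed signal of a probe, a background-subtracted intensity, and the log2 of that signal scaled to the array's 75th percentile. A difference is the scaled log2 value in Gli2 shRNA cells minus that in control shRNA cells. A probe was called measured on an array when most of its spots (most probes have 1) were marked by the software as well above background, and the lowest such signal was 15.2 on the Gli2 shRNA array and 12.8 on the control array. Between 57.1% of probes (Gli2 shRNA) and 59.5% (control) were measured, and 14563 genes were measured on both arrays, each represented by its brightest probe. Among these, Gli2 shRNA cells were higher by at least 2-fold for 268 genes (1.84%) and lower by as much for 260 (1.79%).

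Gli2 itself had a signal of 57.9 in Gli2 shRNA cells and 98.1 in control cells, a difference of -1.04 or 48.7% of the control level after scaling. This dim probe differed by -0.64 with normexp background correction and by -0.90 with median scaling. Of 8 neural stem cell markers, 7 were measured on both arrays with differences of -0.23 to 0.47, and Prom1 was near background. The markers of other cell types were partly present. Itgam, Csf1r, Cd68 and Tyrobp (microglia and macrophages), Emcn, Kdr and Pecam1 (endothelium) and Acta2 (mural cells, on 1 of its 3 probes) were measured on both arrays, while Ptprc and Cx3cr1 (immune cells), Cdh5, Tek and Cldn5 (endothelium) and Pdgfrb, Rgs5, Dcn and Lum (mural cells and fibroblasts) were not well above background on either. Aif1 (microglia, 5.64 in Gli2 shRNA cells and 17.5 in control cells) and the brightest probe of Col1a1 (fibroblasts, 15.1 and 16.0) were measured on the control array only. Col3a1 (fibroblasts, 15.8 and 4.09) was measured on the Gli2 shRNA array only. The unscaled summed signals in Gli2 shRNA and control cells were 6316 and 5515 for 7 microglial markers, mainly through the brighter Itgam probe (5413 and 4694). The dimmer Itgam probe had 55.3 and 35.2. The sums were 1054 and 585 for 6 endothelial markers, mainly through Emcn (933 and 463), and 8289 and 7828 for 7 mural and fibroblast markers. After scaling, the microglial markers measured on both arrays differed by -0.50 to -0.07 on their brightest probes. The dimmer probes of Itgam, Csf1r and Cd68 gave 0.37, 0.02 and -0.38. The endothelial markers differed by -0.48 (Kdr) to 0.74 (Emcn), and Acta2 by -0.19. Their part in the results below was not tested.

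The retinoic acid genes were higher in Gli2 shRNA cells wherever they could be measured. Of the 9 genes, 7 were measured on both arrays, 1 (Crabp1) on neither and 1 (Crabp2) had no matched probe. All 7 lay above 0, where 50.3% of all measured genes did, all 7 were higher by 0.5 or more on the log2 scale, where 7.91% were, and 3 of the 7 were past 2-fold (Cyp26a1, Cyp26b1 and Rbp4), where 1.84% of all measured genes were. These genes were selected on this contrast, so nothing is read from those shares. The median difference of the 7 genes was 0.94, against 0.003 over all 14563 genes. The plot of signals shows all 12 probes.

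**Figure D1:**
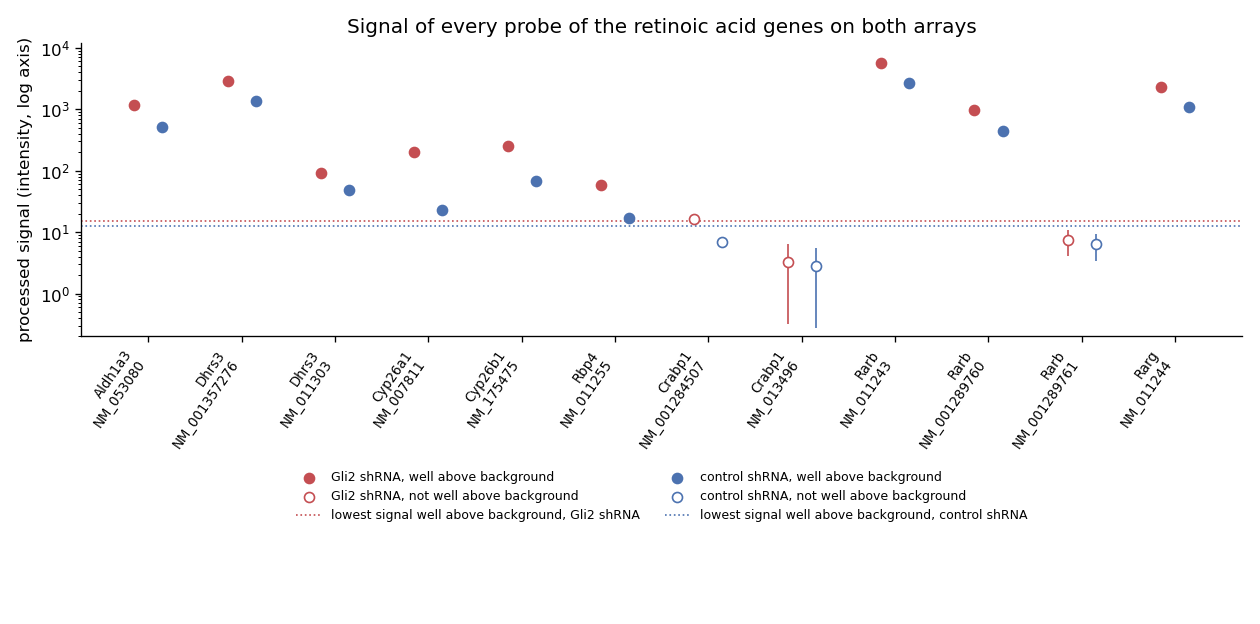
Processed signal (log axis) of all 12 probes of the retinoic acid genes on the Gli2 shRNA array and the control array, with the software's error as bars, which are hidden behind most points. Filled points are well above background, and the dotted lines mark the lowest such signal (15.2 and 12.8). The signals are not scaled, and the 75th percentile of all probes was 399 on the Gli2 shRNA array and 329 on the control array. All 9 probes measured on both arrays were higher on the Gli2 shRNA array, also after scaling.

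Of the enzymes that remove retinoic acid, Cyp26a1 and Cyp26b1 were higher by over 2-fold with scaling to the 75th percentile. Cyp26a1, a cytochrome P450 that hydroxylates retinoic acid, had a signal of 199.6 ± 20.3 in Gli2 shRNA cells and 22.6 ± 3.99 in control cells, a difference of 2.87 ± 0.29 or 7.29-fold. This was rank 4 of the 14563 genes measured on both arrays. Its control signal was close to the lowest signal counted as measured (12.8). Cyp26b1, the related enzyme with the same reaction, had a signal of 255 ± 25.7 in Gli2 shRNA cells and 67.5 ± 7.47 in control cells, a difference of 1.64 ± 0.22 or 3.11-fold, at rank 41. Cyp26c1, the remaining enzyme of the family, was not well above background on either array (3.57 and 9.22).

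The retinol and retinoic acid carriers were near the detection limit. Rbp4, which carries retinol in the blood and outside cells, had a signal of 58.5 ± 6.83 in Gli2 shRNA cells and 16.9 ± 3.51 in control cells, a difference of 1.51 ± 0.34 or 2.85-fold, at rank 60. Its control signal was also close to that limit. Crabp1, which binds retinoic acid in the cytoplasm, has a probe with 10 spots per array (NM_001284507). Those spots ranged from 6.80 to 26.5 with a median of 17.0 in Gli2 shRNA cells, and from 2.94 to 15.3 with a median of 6.19 in control cells, so the ranges overlap. The software marked 4 of the 10 spots in Gli2 shRNA cells and 0 of the 10 in control cells as well above background. The scaled mean of these spots differed by 0.99, but no fold is claimed for it because most spots of both arrays are in the range of the background. Its other probe (NM_013496) was at background on both arrays (3.25 and 2.77).

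The size of these differences is uncertain because dim spots scatter more and their values depend on the background. Among probes with many spots and a median signal up to 30, the spots of a probe had a median SD of 0.41 on the log2 scale on the Gli2 shRNA array (7 probes) and 0.31 on the control array (9 probes), against 0.10 and 0.12 for signals of 100 to 1000. Of the measured genes with a control signal up to 100, 5.57% were higher by 2-fold or more, against 0.738% of those with a control signal over 100. The control signal is also the value subtracted. This split therefore does not separate dim genes from genes whose control value was low by chance. With normexp background correction (a model of signal plus background, with an offset of 50 that draws dim differences toward 0), Cyp26a1 differed by 1.25, Cyp26b1 by 0.94 and Rbp4 by 0.25. Only Cyp26a1 then stayed past 2-fold.

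The enzymes that set the supply of retinaldehyde and retinoic acid were brighter and differed less. Aldh1a3, which oxidises retinaldehyde to retinoic acid and is also used as a marker of mesenchymal glioblastoma stem cells, had a signal of 1189 ± 119 in Gli2 shRNA cells and 511 ± 51.2 in control cells, a difference of 0.94 ± 0.20 or 1.92-fold. It passed 2-fold with median scaling (1.08). Dhrs3, the reductase that returns retinaldehyde to retinol, has 2 probes. Its brighter probe (NM_001357276) had a signal of 2886 ± 289 in Gli2 shRNA cells and 1375 ± 138 in control cells, a difference of 0.79 ± 0.20 or 1.73-fold. The dimmer one (NM_011303), with 91.3 ± 9.80 in Gli2 shRNA cells and 48.3 ± 5.71 in control cells, gave 0.64 ± 0.23. Enzymes of opposite action on retinaldehyde were therefore both higher, each by less than 2-fold with this scaling.

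The receptors were higher by similar amounts. Rarb, which encodes RARβ, had a signal of 5634 ± 563 in Gli2 shRNA cells and 2695 ± 269 in control cells on its brightest probe (NM_011243), a difference of 0.79 ± 0.20 or 1.73-fold. Its probe for NM_001289760 had 964 ± 96.5 in Gli2 shRNA cells and 446 ± 44.7 in control cells, a difference of 0.83 ± 0.20. The third, for NM_001289761, was not well above background on either array (7.53 and 6.29). The measured Rarb probes thus gave close differences at levels of different brightness. The software's error was 0.20 on each of them and is not a measured spread between spots. Rarg, which encodes RARγ, had a signal of 2300 ± 230.0 in Gli2 shRNA cells and 1110 ± 111 in control cells on its only probe, a difference of 0.77 ± 0.20 or 1.71-fold. Rara, which encodes the remaining receptor and is named here for its role after its values were seen, had a signal of 3126 in Gli2 shRNA cells and 2219 in control cells, a difference of 0.22 ± 0.20 (0.10 ± 0.20 on its other probe).

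Aldh1a3, Dhrs3, Rarb and Rarg ranked between 316 (Aldh1a3) and 491 (Rarg) of 14563 genes. Of all measured genes, 7.91% were higher by 0.5 or more on the log2 scale, and 5.75% of those with a control signal over 100, a split by the subtracted value. The differences of Aldh1a3, Dhrs3, Rarb and Rarg moved little with the background correction, to between 0.77 (Rarg) and 0.88 (Aldh1a3) with normexp. The plot of the 7 differences shows this contrast between the bright and the dim genes.

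**Figure D2:**
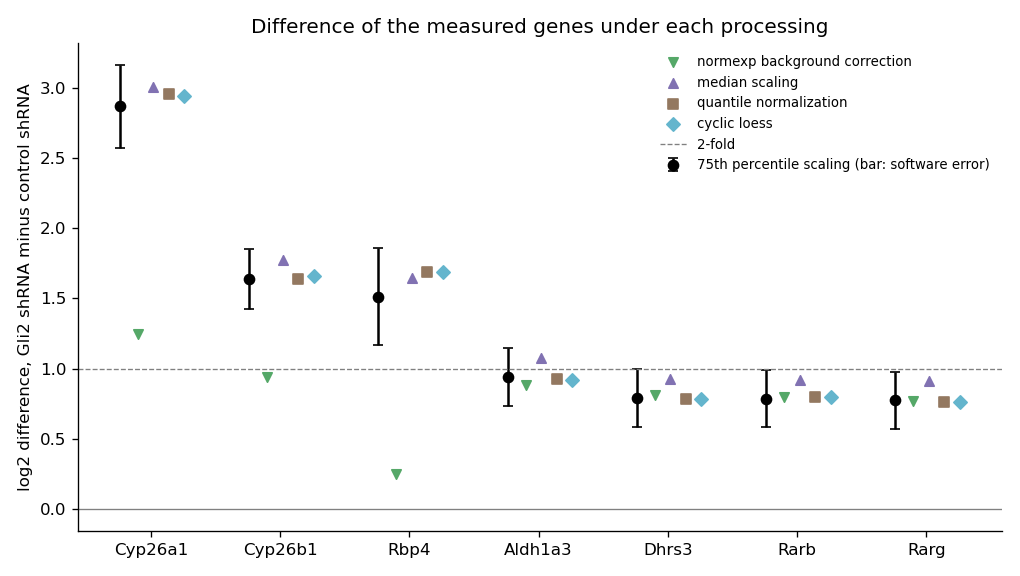
Log2 difference, Gli2 shRNA minus control shRNA, of the 7 genes measured on both arrays under 5 ways of processing. Black points carry the software's error, and the dashed line marks 2-fold. Normexp lowers Cyp26a1 to 1.25, Cyp26b1 to 0.94 and Rbp4 to 0.25, while Aldh1a3, Dhrs3, Rarb and Rarg stay between 0.76 and 1.08 under all 5.

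The promoters of Cyp26a1 and Rarb are shown because both hold the type of DNA repeat to which retinoic acid receptors are known to bind, in genes that were higher here. The sequences are RefSeq's for build GRCm38.p6, from 250 bases before the annotated start to 50 bases after it, 5′ to 3′ along the gene. Capitals mark a direct repeat of 2 half-sites (AGGTCA or GGGTCA or AGTTCA or GGTTCA) with 5 bases between them, searched on both strands. The region of Cyp26a1 is chr19:37697558-37697857 on the plus strand, and that of Rarb is chr14:16575427-16575726 on the minus strand.
Cyp26a1: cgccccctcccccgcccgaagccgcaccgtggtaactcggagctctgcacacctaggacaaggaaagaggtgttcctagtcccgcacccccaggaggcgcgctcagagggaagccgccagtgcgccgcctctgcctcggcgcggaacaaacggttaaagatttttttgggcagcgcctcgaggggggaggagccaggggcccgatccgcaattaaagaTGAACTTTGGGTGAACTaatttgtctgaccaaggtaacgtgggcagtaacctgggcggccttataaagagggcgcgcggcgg
Rarb: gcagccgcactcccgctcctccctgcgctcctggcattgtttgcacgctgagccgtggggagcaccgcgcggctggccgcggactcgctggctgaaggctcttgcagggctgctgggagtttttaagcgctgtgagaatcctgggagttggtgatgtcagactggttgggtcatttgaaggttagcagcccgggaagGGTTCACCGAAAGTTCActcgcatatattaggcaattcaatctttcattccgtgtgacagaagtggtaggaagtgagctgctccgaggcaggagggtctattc

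In Cyp26a1 the repeat lies 32 to 16 bases before the annotated start, on the strand opposite to the gene, and in Rarb 53 to 37 bases before it, on the strand of the gene. Read along its half-sites, with the spacer in lower case, the repeat is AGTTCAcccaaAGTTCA in Cyp26a1 and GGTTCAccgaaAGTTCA in Rarb. The repeats share 15 of 17 bases and differ by A1G and C9G, where the Cyp26a1 base comes first and positions count from 1 at the 5′ end of the repeat. Such a repeat is rare at this distance from a start: 32 of 32851 promoters of the same length (0.0974%) held it. RefSeq entries were found for 7 of the 9 genes (11 promoters in all), and the other 9 promoters held no such repeat. Repeats with 1 or 2 bases between the half-sites (in 0.222% and 0.268% of all promoters), or the motif GACCACCCA recognised by GLI proteins (in 0.253%), were found in 0 of the 11. A match is a run of letters and not a shown binding site, and its absence from these windows says nothing of sites elsewhere.

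The other genes of the pathway were given by lists of 36 transport and metabolism genes, 14 receptors and coregulators and 24 genes known to respond to retinoic acid. Of the transport and metabolism genes, 20 were measured on both arrays. None of these 20 was past 2-fold in either direction, against 1.84% (higher) and 1.79% (lower) of all measured genes, and the median difference was -0.02 (8 above 0, 12 below). Adh5, an alcohol dehydrogenase (-0.001 ± 0.20), and Rbp3, a retinoid carrier of the retina (-0.003 ± 0.20), were bright and close to 0. Fabp5, a fatty acid carrier that also binds retinoic acid, was bright and differed by -0.28 ± 0.20. The lower quartile of all measured genes was -0.19. Rbp7, a cellular retinol carrier, was measured on the control array only (10.9 and 32.4) and was at least 2.59-fold lower. That is 1 of 2 list members measured on the control array only, where 18.2% of all such genes passed the same bound.

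The steps before Aldh1a3 differed in both directions. The measured Rdh genes, a family of retinol dehydrogenases, had differences on their brightest probes from -0.22 (Rdh13) to 0.60 (Rdh5). Rdh5, known from the visual cycle of the eye, had a signal of 225 in Gli2 shRNA cells and 122 in control cells (0.60 ± 0.21). Rdh11, a retinaldehyde reductase, had 2138 and 1267 (0.48 ± 0.20), and 0.81 ± 0.21 on its dimmer probe (153 and 71.8), about the size of the difference of Rarb or Dhrs3. Rdh10, the main retinol dehydrogenase of the embryo, had a signal of 152 in Gli2 shRNA cells and 139 in control cells (-0.15 ± 0.21), and Stra6, the retinol uptake receptor, 207 and 190 (-0.15 ± 0.21). Of the sister enzymes of Aldh1a3, Aldh1a1 was near background (19.8 and 16.7, -0.03 ± 0.40), and Aldh1a2 was measured on the Gli2 shRNA array only (19.4 and 10.0), with a lower bound of 1.25-fold higher that does not reach 2-fold and sets no upper limit. Rlbp1 had the lowest measured difference of the transport and metabolism list, -0.69 ± 0.21 (82.1 in Gli2 shRNA cells and 110 in control cells). These genes are named for their roles or differences, after their values were seen.

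Of the 14 receptors and coregulators, 13 were measured on both arrays, and 0 of them passed 2-fold in either direction (median -0.05, 6 above 0 and 7 below). Rxra and Rxrb, the partners of the retinoic acid receptors, differed by -0.07 ± 0.20 and -0.22 ± 0.20. Rxra had a dimmer probe at 0.44 ± 0.28 (51.1 and 31.1), while the other probes of Rxrb gave -0.34 and -0.28. The corepressor Ncor1 differed by 0.09 ± 0.20. Rxrg was measured on the Gli2 shRNA array only (22.2 and 8.09), with a lower bound of 1.43-fold higher that sets no upper limit.

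The listed genes that respond to retinoic acid in other settings were mostly within 2-fold where measured. Of 24, 13 were measured on both arrays, with a median of -0.12 (3 above 0, 10 below). The list leaves out Cyp26a1, Rarb and Dhrs3, which retinoic acid also induces and which were selected as higher. Its median therefore does not describe response genes as a whole. Of these 13, 1 was higher by 2-fold and 0 were lower, against 1.84% and 1.79% of all measured genes. The higher one was Tgm2, the tissue transglutaminase, with a signal of 263 in Gli2 shRNA cells and 81.8 in control cells, a difference of 1.41 ± 0.21 or 2.66-fold (0.83 with normexp). Rarres1, a retinoic acid responder gene, had a signal of 155 in Gli2 shRNA cells and 70.2 in control cells (0.86 ± 0.21 or 1.82-fold), and is named after its values were seen. Rarres2, which encodes the chemoattractant chemerin, was the list's gene measured on the Gli2 shRNA array only (45.1 and 14.7). It was at least 2.54-fold higher, a bound of 2-fold that 31.1% of such genes passed.

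The Hox genes of this list, which retinoic acid is known to induce in the hindbrain and spinal cord, were below 0 or close to it. Of 13 listed, 6 were measured on both arrays. All 6 were below 0 with scaling to the 75th percentile, but 3 were above 0 with median scaling, which raises the median of all genes to 0.14. Hoxa3 had a signal of 2474 in Gli2 shRNA cells and 2542 in control cells (-0.32 ± 0.20, and -0.01 on its other probe). Meis1, a homeobox partner of Hox proteins, differed by -0.14 ± 0.20 and Nr2f1, an orphan nuclear receptor of the brain, by 0.18 ± 0.20.

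**Figure D3:**
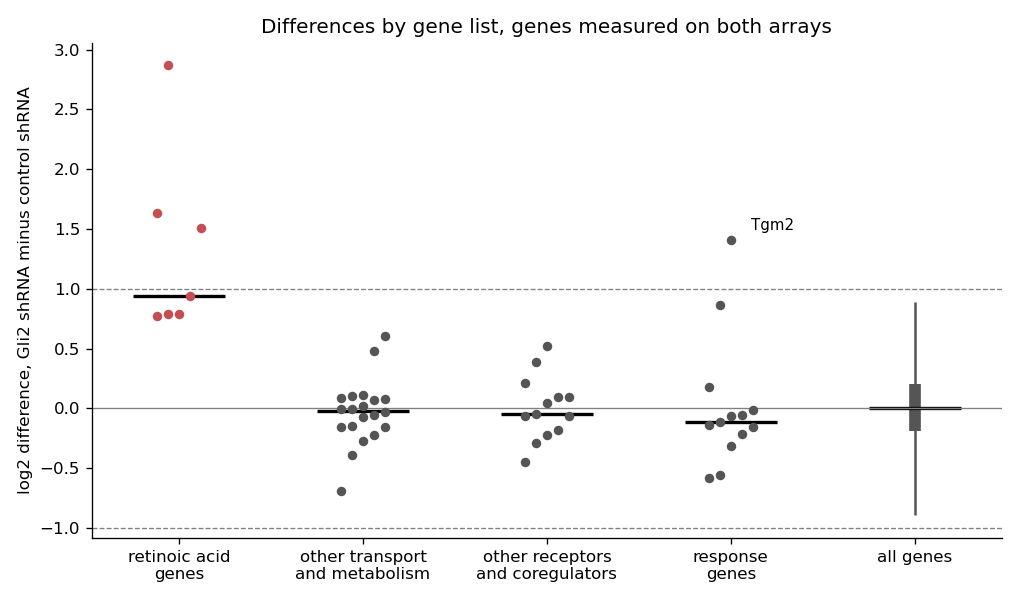
Log2 difference, Gli2 shRNA minus control shRNA, of each gene measured on both arrays: the 7 retinoic acid genes, 20 other transport and metabolism genes, 13 other receptors and coregulators and 13 response genes. Horizontal bars are medians (0.94, -0.02, -0.05 and -0.12), dashed lines mark 2-fold, and the column at the right shows the median, the quartiles (thick) and the central 95% (thin) of all genes. The red genes were selected on these differences, and those that retinoic acid is known to induce (Cyp26a1, Rarb and Dhrs3) are not in the response list.

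The 8 genes with a probe lie on 7 chromosomes. The plot of all genes places the 7 measured ones by signal, with the 3 past 2-fold in the dim part.

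**Figure D4:**
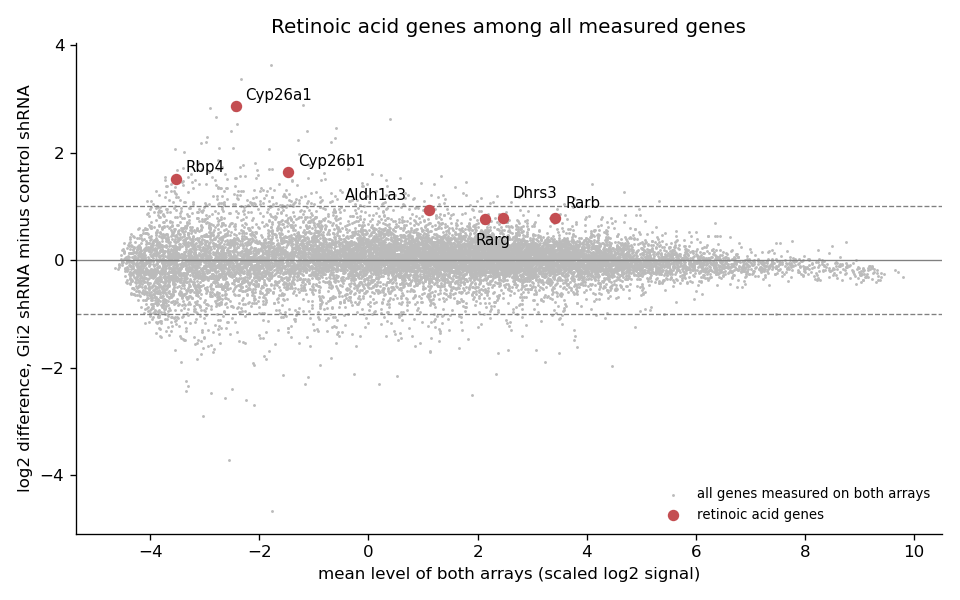
Log2 difference, Gli2 shRNA minus control shRNA, against the mean scaled log2 level of both arrays for the 14563 genes measured on both (grey) and the 7 retinoic acid genes (red). Dashed lines mark 2-fold. Cyp26a1, Cyp26b1 and Rbp4 lie in the dim part, where grey points spread widely, and Aldh1a3, Dhrs3, Rarb and Rarg lie at 0.77 to 0.94 where the spread is narrower.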

How the data were processed

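Per the labels' protocols, Cy3-labelled RNA of each culture was put on its own Agilent array (1 colour). Per the file headers, spots were read with Feature Extraction 12.1.0.3 (protocol GE1_1200_Jun14), which gives the deposited background-subtracted intensity of each spot, its error and its flags. Both arrays share 1 slide and 1 scan. The authors' deposited value table holds log2 values that equal the log2 intensity minus 1 constant per array (8.64 for Gli2 shRNA, 8.36 for control), so its scale and direction are settled and genes are not centred; its column medians are -3.69 and -3.55.

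Outlier spots were left out (120 and 126), none was saturated, and spots of a probe were averaged on the log2 scale. Probes were named through RefSeq accessions of GRCm38.p6 (34560 of 56595 matched). For a gene measured on 1 array a fold is a lower bound, for which the dim side took its own value or, if that was lower, the detection limit of its array (15.2 or 12.8). Named genes are the 9 members, Gli2, and of each list those past 2-fold and the 4 brightest; others are said to be chosen later. Some genes that this rule names are not reported here. The members and lists were chosen with earlier results of these data known. Normexp used the median spot and background intensities, in place of the planned mean intensity. The code that makes the calls was run on simulated data in which only bright probes were changed. That run does not check calls on dim probes such as those of Cyp26a1, Cyp26b1 and Rbp4. Python 3.11.15, limma 3.58.1 and R 4.3.3 were used. Precision is limited by 1 array per group, and these values measure no spread between cultures.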

Additional observations from a re-analysis of the deposited data

How the results depend on the processing

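The 7 measured retinoic acid genes lay above 0 under each scaling, background correction, probe choice and the authors' deposited table, with a median of 0.81 (normexp) to 1.08 (median scaling). Their count past 2-fold higher was 3 in most settings, where 1.63% to 3.23% of all measured genes were. It was 4 with median scaling (2.64% of all) and 1 with normexp (Cyp26a1, 0.46% of all). The stricter filter asked for 4 times the lowest signal well above background. Cyp26a1 and Rbp4 then no longer counted as measured, and 1 gene was past 2-fold (Cyp26b1, 1.21% of all). Counting a probe as measured when any of its spots was well above background, an alternative chosen after seeing the data, left the count at 3, and the lower bound of Crabp1 did not reach 2-fold. Across all genes, the counts of higher and lower genes were 67 and 100 with normexp, 769 and 2075 without the filter on dim probes, and 147 and 143 with the stricter filter. Higher genes made up 50.8% of the calls, but 68.6% with median scaling (384 and 176 genes), 40.1% with normexp and 27.0% without the filter. Bounds past 2-fold numbered 22 higher and 26 lower with normexp, and 108 lower with quantile normalization and 112 with cyclic loess, against 148 and 169. With normexp, the transport and metabolism list had 0 genes lower by a bound, and the response list 0 higher on both arrays and 0 by a bound. Without the filter, the transport and metabolism list had 1 higher and 7 lower, the receptors and coregulators 1 higher, and the response list 2 higher and 1 lower, since genes at background then count. The cause of the other shifts was not tested. The filters give no bounds. No paired analysis was possible because each group has 1 array, and no replicate could be left out.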

Other observations

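Cyp26a1 and Rbp4 are near neighbours on chromosome 19, with 3 protein-coding genes between them in the annotation of GRCm38.p6. This was looked at after the values were seen. Of those 3, Myof, a membrane repair protein, had a signal of 108 in Gli2 shRNA cells and 60.0 in control cells (0.56 ± 0.22). Cep55, a protein of cell division, had 185 and 125 on its brighter probe (0.29 ± 0.21) and 82.8 and 54.1 on its other (0.34 ± 0.23). Ffar4, a fatty acid receptor, was not well above background on either array. Before Cyp26a1 lie Exoc6, a subunit of the exocyst, at 0.69 ± 0.20 and 0.54 ± 0.20 on its probes, and Cyp26c1, not well above background on either array. After Rbp4 lie Pde6c at -0.90 ± 0.38 (18.9 and 29.1) and Fra10ac1 at -0.64 ± 0.20 and -0.34 ± 0.20. Cyp26a1 and Rbp4 were selected as higher, so their direction adds nothing here. Apart from them, the measured probes of Exoc6, Myof and Cep55 were above 0 and within 2-fold, and those of Pde6c and Fra10ac1 were below 0. Of all measured genes, 50.3% were above 0, and nothing is read from this span.

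The repeat shown for Cyp26a1 and Rarb was found in the promoters of 31 genes, of which 15 were named on the array and 5 were measured on both arrays. Beside Cyp26a1 and Rarb these were Blvrb, a biliverdin reductase (2702 and 1508, 0.56 ± 0.20), Tnfsf13b, a B cell survival factor (38.9 and 36.2, -0.17 ± 0.28), and Pcsk2os2 (23.4 and 19.0, 0.02 ± 0.38). Cfap45, a cilium protein, reached detection in Gli2 shRNA cells but not in control cells (35.4 and 3.36) and was at least 2.29-fold higher. Without the retinoic acid genes, 0 of 3 genes measured on both arrays were past 2-fold, which is too few to describe the group.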
